A study of Mus musculus with 4 samples.

Results

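The genes described here encode parts of the axoneme, the microtubule skeleton that makes a sperm flagellum or a motile cilium beat. They were chosen by symbol: every gene whose name begins with Dnah, Dnaic, Dnal, Cfap, Rsph, Tekt or Drc followed by a digit or the letter i, and that had at least 20 UMIs over the 4 libraries. A UMI (unique molecular identifier) marks 1 captured transcript, and because only the 3′ end of a transcript was counted, levels of genes of different length can be compared. Of 70 matching symbols, 68 passed, out of 32285 genes in the files, of which 21052 reached 20 UMIs. *Cfap73* and *Cfap97d1* fell outside with 2 and 3 UMIs, and the members nearest the limit were *Dnaic2* with 86 and *Dnah3* with 87. The members sort by role into 15 dynein heavy chains, 5 intermediate or light chains, 8 radial spoke proteins, 3 subunits of the nexin-dynein regulatory complex, 5 tektins, 31 cilia- and flagella-associated proteins (CFAPs) and 1 antisense transcript, *Dnah2os*.

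An axoneme is a ring of doublet microtubules around a central pair. Rows of outer and inner dynein arms, whose heavy chains are the ATP-driven motors, slide neighbouring doublets against each other. The nexin-dynein regulatory complex links doublets and turns sliding into bending, radial spokes carry signals from the central pair to the arms, and tektins and several CFAPs line the inside of the doublets. Male germ cells build the flagellum after meiosis, as spermatids, but many of its transcripts are known to accumulate earlier, in meiotic prophase, when leptotene, zygotene and pachytene spermatocytes pair their chromosomes. Some dynein heavy chains differ between tissues: *Dnah8* and *Dnah17* are the outer arm motors of sperm, and *Dnah5*, *Dnah9* and *Dnah11* those of multiciliated epithelia.

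Single-cell 3′ libraries were made from testes of C57BL/6N mice at postnatal day 15, an age at which spermatocytes have reached pachytene and no spermatids are present. The groups were wild-type (2 pups) and Meioc KO (2 pups, here *Meioc*-null, homozygous for a germline null allele), with 1 testis taken from each pup. Every mouse, wild type included, was also heterozygous for an *Hspa2* mutant allele and carried a *ROSA26* tdTomato reporter that was not recombined. Each batch was 1 littermate pair, so that replicate 1 and replicate 2 name the pair. MEIOC is a germ-cell protein needed for meiotic prophase, and the genotype comparison asks which transcripts depend on it.

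The libraries held between 158291903 and 190455307 UMIs. Filters left 5644 and 7505 cells in the libraries of wild type, and 6554 and 6522 in those of *Meioc*-null. Libraries shared between 45 and 73 cell barcodes in pairs. *Meioc* itself was counted in both genotypes: in cluster 6, where it was high, its level was 634 and 684 CPM in wild type against 678 and 650 CPM in *Meioc*-null, and since 3′ tags can lie outside a deletion this does not check the labels. CPM are UMIs of a gene summed over the cells of 1 library and cluster and scaled to a common total. Germ cells fell into 10 clusters, built without the members and other axoneme genes and numbered along development. Cluster 1 was undifferentiated spermatogonia-like, clusters 2 to 5 were differentiating spermatogonia-like, cluster 6 (led by *Stra8* and *M1ap*) was left unnamed, clusters 7 to 9 were early spermatocyte-like and cluster 10 (led by *Ldhc* and *Fabp9*) was pachytene-like. Of the 8 pachytene markers listed, *Ldhc*, *Piwil1*, *Tesmin*, *Tbpl1* and *Mns1* were higher in cluster 10 than in clusters 1 and 8 in both wild-type libraries (*Tesmin* at 789 and 685 CPM against 12.5 and 4.85 CPM in cluster 1), while *Pou5f2* was not. *Meioc*-null cells were placed by their nearest wild-type cells, so any without a wild-type counterpart were also given to these clusters, and how many of them clusters 6 to 9 hold was not tested. The clustering of the study itself, not used here, set apart a group made up primarily of *Meioc*-null cells, mostly in G2/M. It also named some *Meioc*-null cells pachytene. The genotype differences given here hold for the placing described. Cluster 10 held 251 and 298 cells of wild type but 0 and 0 of *Meioc*-null. Cluster 9 held 276 and 685 cells of wild type but only 72 and 99 of *Meioc*-null. Peritubular myoid cells (contractile cells of the tubule wall) and Sertoli cells (somatic nurse cells) serve as the somatic background.

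Promoters of 57 of the 68 members were found in RefSeq (GRCm38.p6, 250 bases before to 50 bases after the transcript start), and 4 are shown because they hold letters recognised by the RFX and MYB families, regulators of ciliary and of pachytene genes respectively. They are written on the gene's strand, with the matched letters in capitals. Letters searched on both strands were GTTGCC for RFX, AACTGNC for MYB and, for the cyclic AMP response element, TGACG.
Cfap298, chr16:90934800-90935099, minus strand, with a facing pair of RFX matches at 188 and another at 69 bases before the start: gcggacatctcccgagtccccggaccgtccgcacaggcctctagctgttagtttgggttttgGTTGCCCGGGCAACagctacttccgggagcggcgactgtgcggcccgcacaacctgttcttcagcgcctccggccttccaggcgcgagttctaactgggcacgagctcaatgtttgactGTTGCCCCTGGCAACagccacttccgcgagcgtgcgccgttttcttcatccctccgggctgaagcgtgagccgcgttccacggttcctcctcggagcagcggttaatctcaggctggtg
Dnah7a, chr1:53706735-53707034, minus strand, with an RFX match at 200 and a MYB match at 65 bases before the start: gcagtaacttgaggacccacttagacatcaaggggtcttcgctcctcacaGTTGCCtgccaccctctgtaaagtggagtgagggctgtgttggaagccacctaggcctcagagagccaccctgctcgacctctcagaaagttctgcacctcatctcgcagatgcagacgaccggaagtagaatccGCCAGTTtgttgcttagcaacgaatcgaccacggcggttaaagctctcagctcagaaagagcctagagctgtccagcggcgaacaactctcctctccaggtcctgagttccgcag
Dnah12, chr14:26691304-26691603, plus strand, with MYB matches 100 bases before the start and at base 1: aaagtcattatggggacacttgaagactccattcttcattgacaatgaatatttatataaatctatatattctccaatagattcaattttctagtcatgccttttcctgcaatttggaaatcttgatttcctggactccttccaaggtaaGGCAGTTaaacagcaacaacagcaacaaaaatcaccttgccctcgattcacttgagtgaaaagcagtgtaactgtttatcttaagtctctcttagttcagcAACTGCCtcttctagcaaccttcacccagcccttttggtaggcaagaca
Tekt1, the upstream of its 2 starts, chr11:72361833-72362132, minus strand, with RFX matches 35 and 15 bases before the start: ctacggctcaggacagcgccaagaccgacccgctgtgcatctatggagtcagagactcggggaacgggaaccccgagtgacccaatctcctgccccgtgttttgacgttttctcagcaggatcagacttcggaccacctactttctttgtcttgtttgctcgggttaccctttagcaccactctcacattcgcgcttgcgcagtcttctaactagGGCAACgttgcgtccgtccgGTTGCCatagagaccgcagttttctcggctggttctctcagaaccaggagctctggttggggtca
GTTGCC was present in 20 of the 57 member promoters (35.1%) and in 14.1% of all 27025 genes with a promoter. AACTGNC was present in 14 (24.6%, against 14.5%) and TGACG in 11 (19.3%, against 23.0%). *Cfap298* was the 1 member with a facing pair of RFX sites (GTTNCC followed by GGNAAC, at most 3 bases apart), which 0.936% of all genes had. These are matches of letters, not measured binding.

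Taken as a sum, the 68 members were at a low level through the spermatogonia and at higher levels in the last 3 of the 10 clusters. In wild type the sum was 604 and 562 CPM in cluster 1, 592 and 557 CPM in cluster 7, 1152 and 1007 CPM in cluster 8, 3049.9 and 2818 CPM in cluster 9 and 8399.8 and 6780.4 CPM in cluster 10. In both wild-type libraries each of the last 3 clusters was thus above the one before it. *Rsph1*, which encodes a head protein of the radial spoke, made up 37.8 and 40.0% of the sum in cluster 10, and with *Cfap36*, *Dnah8*, *Cfap298* and *Cfap20* it made up 63.2 and 68.6%. Summed levels are therefore mostly levels of 5 genes. Counted per cell after each cell was thinned to 5000 UMIs, a wild-type cell had a UMI of 2.49 and 2.28 different members on average for cluster 7, then 4.40 and 3.87 (cluster 8), 6.53 and 6.21 (cluster 9) and 14.6 and 11.9 (cluster 10; 4.46 and 3.96, 7.63 and 6.34, 12.7 and 11.5, and 37.1 and 29.9 without thinning). Myoid cells had 1.62 and 1.37, and Sertoli cells had 2.37 and 2.35, about the number of cluster 7, with a summed level of 583 and 575 CPM. In cluster 10, 37 and 13 cells, and in Sertoli cells 312 and 177, were too shallow to be thinned and were left out.

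**Figure D1:**
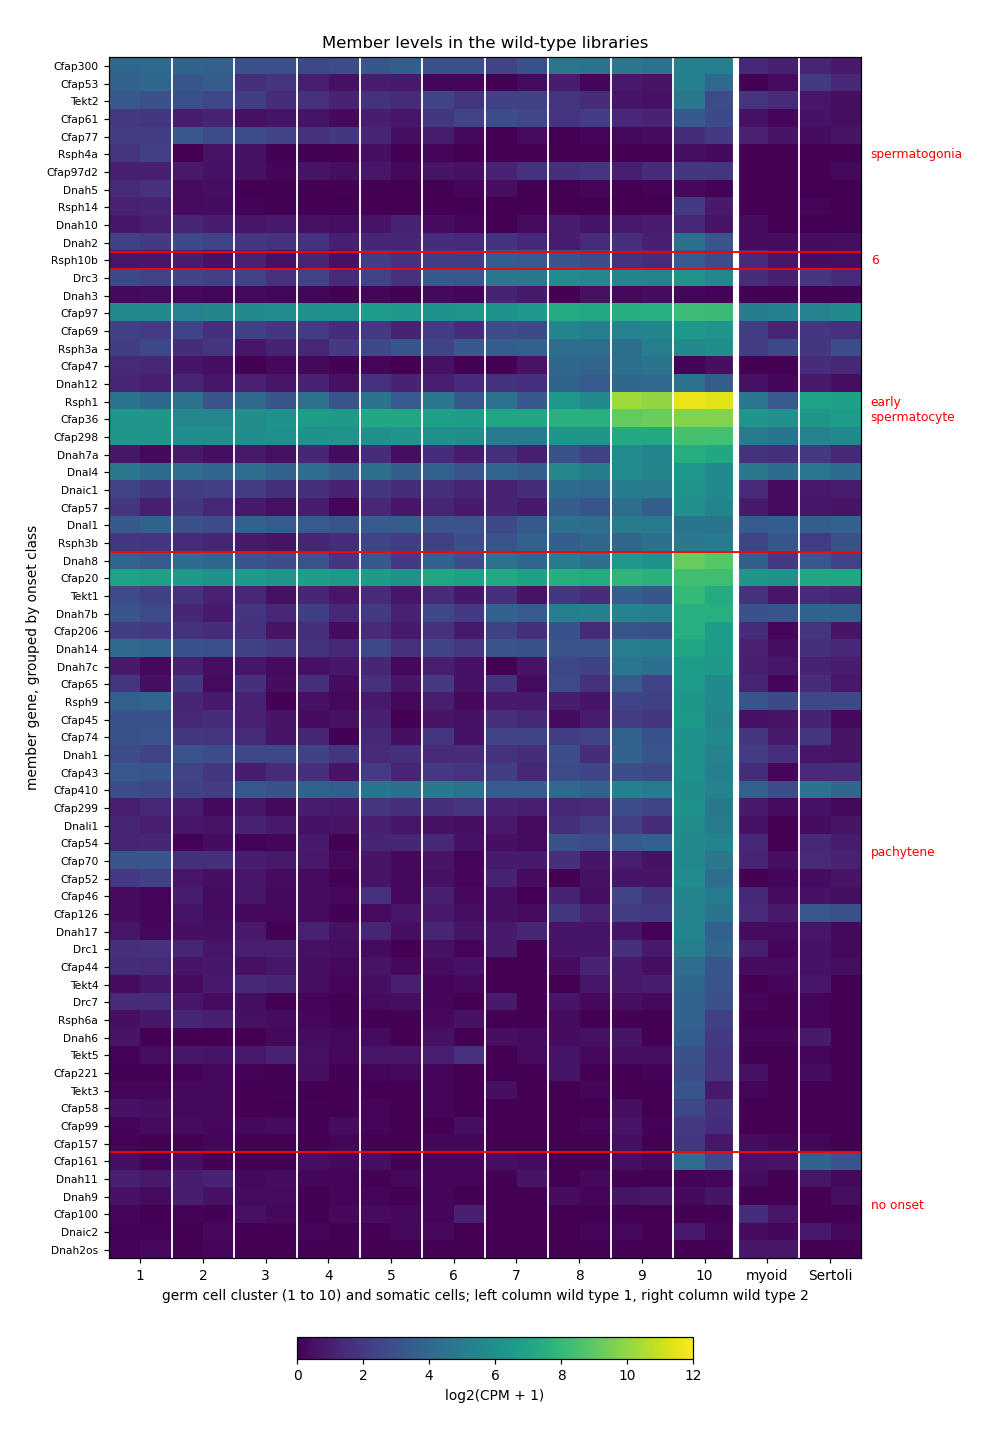
Level of each of the 68 members (rows, log2(CPM + 1)) in the germ cell clusters 1 to 10, myoid and Sertoli cells (columns, wild type 1 on the left and wild type 2 on the right of each pair), grouped by onset class between red lines. Most of the 34 members of the pachytene class are dark up to cluster 9 and brighter in cluster 10, *Cfap20* is bright throughout, and *Rsph1* and *Cfap36* are already bright in cluster 9.

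Onset was described with a fixed rule: the earliest cluster in which a member reached 25% of its highest cluster level and at least 2 times the higher of its Sertoli and myoid levels, in both wild-type libraries. By this rule 34 members began in cluster 10, 16 in the early spermatocytes (2 in cluster 7, 5 in cluster 8 and 9 in cluster 9), 1 in cluster 6 and 11 in spermatogonia, while 6 had no onset. These classes describe the cells that were clustered and carry no test. The pachytene class depended on the level required, with 21 members at 10% of the peak and 45 at 50%. It was 26 without wild type replicate 1, and with 14 clusters it was 25. In that last setting 14 members began in a late cluster that was left unnamed. They came from the pachytene class and, for *Rsph1*, *Dnah7a*, *Cfap57* and *Dnal1*, from the early spermatocyte class. The spermatogonial class varied more, with 21 members at 10% of the peak, 4 at 50%, 19 with no somatic floor and 7 at a 5% mitochondrial limit. It also rested on both libraries, with 19 members when wild type replicate 1 was left out and 14 when replicate 2 was. A peak in cluster 10 was found for 56 members. From cluster 9 to cluster 10, 59 members were higher in both wild-type libraries, 47 of them over 2-fold and 22 over 10-fold, and 4 were lower in both.

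Most of the 11 members with onset in spermatogonia were lowly expressed. *Cfap300*, a factor for the assembly of dynein arms, was at 15.1 and 16.0 CPM in cluster 1, at 4.44 and 7.24 CPM in cluster 7 and at 36.9 and 35.8 CPM in cluster 10. *Cfap53*, which encodes a protein of the doublet lumen, was at 12.8 and 15.7 CPM in cluster 1, at 0.111 and 0.119 CPM in cluster 6 and at 34.8 and 16.3 CPM in cluster 10. *Tekt2*, a tektin, likewise had a level in cluster 1 (9.06 and 6.96 CPM) and a low in cluster 9 (0.615 and 0.478 CPM). In cluster 10 it was at 26.7 and 5.73 CPM, above cluster 1 in wild type replicate 1 alone. *Rsph4a*, a radial spoke head protein of motile cilia, was at 2.53 and 3.79 CPM in cluster 1 and 0.397 and 0.253 CPM in cluster 10. *Dnah5* likewise had 1.71 and 2.32 CPM in cluster 1 and 0.238 and 0.0842 CPM in cluster 10. Both were thus highest in undifferentiated spermatogonia and stayed under 1 CPM in pachytene-like cells.

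*Rsph10b* was the 1 member that began in cluster 6. It was at 3.54 and 3.70 CPM there, 10.9 and 9.92 CPM in cluster 7, and 9.93 and 5.64 CPM in cluster 10. Its highest cluster depended on the clustering: with 14 germ cell clusters wild type replicate 1 was highest in the last of them, at 12.2 CPM against 10.3 CPM in cluster 10 of the 14.

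The 16 members that began in early spermatocytes include the most abundant of all. *Rsph1* (chromosome 17, 31255019 to 31277383, minus strand, GRCm38) was at 21.4 and 9.38 CPM in cluster 7, 84.3 and 52.5 CPM in cluster 8, 1215 and 1026 CPM in cluster 9 and 3172 and 2710.4 CPM in cluster 10. Its level in cluster 9 was thus over 25% of that in cluster 10. At 50% of the peak *Rsph1* began in cluster 10, and with 14 clusters it began in the late unnamed cluster. *Cfap36*, a cofactor of the small GTPase ARL3, was at 133 and 134, 189 and 185, 557 and 620.3, and 848 and 839 CPM over the same clusters. *Cfap298*, a dynein arm assembly factor, was at 28.7 and 30.6 CPM in cluster 7 and 364 and 336 CPM in cluster 10. *Drc3*, of the nexin-dynein regulatory complex, was early, with 25.8 and 27.6 CPM in cluster 7, 53.5 and 45.9 CPM in cluster 8 and 74.1 and 47.3 CPM in cluster 10. *Dnal1*, a light chain of the outer arm, had its highest level in cluster 9 (32.6 and 30.4 CPM, against 24.5 and 24.7 CPM in cluster 10). *Cfap47*, a central apparatus protein and the only member on chromosome X (79266559 to 79517285, GRCm38), was at 15.6 and 13.9 CPM in cluster 8, 20.3 and 23.6 CPM in cluster 9 and 0.0794 and 0.421 CPM in cluster 10. In both libraries it was thus near 0 in cluster 10.

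Among the 34 members with onset in cluster 10, *Dnah8* (chromosome 17, 30624354 to 30877365, plus strand) reached 599 and 451 CPM after 84.4 and 69.5 CPM in cluster 9. *Tekt1* reached 250.7 and 164 CPM after 11.1 and 8.22 CPM. *Cfap20*, of the inner junction of the doublet, was expressed in every cluster and in somatic cells (144 and 140 CPM in Sertoli cells), and its 330 and 315 CPM in cluster 10 put it in this class only because of the somatic floor. *Dnah17*, the partner of *Dnah8* in the sperm outer arm, went from 0.615 and 0.0955 CPM to 41.1 and 11.8 CPM. Here the wild-type libraries differed by more than 3-fold.

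The 2 wild-type libraries differed in cluster 10 for most members. Of the 56 members that peaked there, 53 were higher in replicate 1, with a median ratio of 1.79 and the largest ratio, 9.05, for *Tekt3*. When germ cells were divided into 14 clusters, the last of them, clusters 13 and 14, held 200 and 168 cells of wild type replicate 1 and 395 and 137 cells of replicate 2. Of the 34 members with pachytene onset, 29 were over 2-fold higher in cluster 14 than in cluster 13 in both libraries, as was 1 of the 16 with early spermatocyte onset. The share of cells in cluster 14 moved with the library difference, and its part in that difference was not tested.

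By role, the outer arm heavy chains in cluster 10 were almost entirely *Dnah8*. The summed level of the 5 outer arm chains was 641 and 463 CPM, with *Dnah17* next and *Dnah5*, *Dnah9* and *Dnah11* under 1 CPM. *Dnah9* and *Dnah11* had no onset, with peaks of 0.868 and 0.48 CPM and of 0.965 and 1.28 CPM in cluster 2. The motors named for epithelial cilia were thus at the limit of detection in these spermatocytes.

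The 9 inner arm heavy chains summed to 151 and 125 CPM in cluster 9 and 578 and 484 CPM in cluster 10. *Dnah7a*, *Dnah7b* and *Dnah7c*, related copies on chromosome 1 whose reads may be split or lost where their sequences are alike, led them with 177 and 148, 182 and 189, and 94.6 and 86.7 CPM in cluster 10. *Dnah7b* was also at 35.5 and 35.9 CPM in cluster 8, when *Dnah7a* was at 6.84 and 4.05 CPM. *Dnah1* was at 12.7 and 8.31 CPM in cluster 9 and at 69.2 and 38.4 CPM in cluster 10. *Dnah12* was early, with 13.7 and 10.4 CPM in cluster 8, 15.8 and 16.0 CPM in cluster 9 and 21.7 and 10.4 CPM in cluster 10. *Dnah3* stayed under 1.3 CPM in every cluster. *Dnah14*, a heavy chain with no settled place in the arms, was at 16.4 and 14.3 CPM in cluster 1, 7.78 and 7.27 CPM in cluster 8 and 138 and 99.7 CPM in cluster 10. *Dnah2os* lies on the opposite strand within *Dnah2* (chromosome 11, 69448548 to 69453676, GRCm38), and reads of such overlapping genes are uncertain. *Dnah2os* was highest in Leydig-like cells, at 16.3 and 9.01 CPM, was at 0.67 and 0.667 CPM in myoid cells and had no UMI in clusters 3 to 10 of wild type.

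Among the intermediate and light chains, *Dnal4* was present throughout (26.8 and 18.2 CPM in cluster 1, 86.9 and 53.3 CPM in cluster 10). *Dnaic1*, an intermediate chain of the outer arm, began in cluster 9 at 32.0 and 28.9 CPM and reached 72.6 and 53.2 CPM. *Dnali1*, a light chain of the inner arms, was at 3.89 and 1.91 CPM in cluster 9 and at 60.3 and 31.3 CPM in cluster 10. *Dnaic2*, which is known as the partner of *Dnaic1* in the outer arm, stayed under 1 CPM in all 10 clusters. Sertoli cells held as much of it, at 0.845 and 0.191 CPM.

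Radial spoke genes other than *Rsph1* were far less abundant. In cluster 10 *Rsph9*, another head protein, was at 81.7 and 52.0 CPM and *Rsph3a*, of the stalk, at 52.8 and 60.5 CPM. *Rsph3a* and *Rsph3b* are near-identical copies, and reads may be split between them. *Rsph6a*, the head protein of sperm, was at 12.5 and 3.79 CPM in cluster 10 and had no UMI in cluster 9. *Drc1* and *Drc7* of the regulatory complex reached 34.2 and 14.4 CPM and 12.5 and 6.82 CPM in cluster 10, after 2.05 and 0.764 CPM and 0.41 and 0.191 CPM in cluster 9. *Drc7* was placed in the spermatogonial class at 10% of the peak and when wild type replicate 1 was left out, so its order relative to *Drc3* rests on the rule and on that library. Of the tektins in cluster 10, *Tekt1* was the most abundant, *Tekt4* was at 15.7 and 7.66 CPM, and *Tekt3* and *Tekt5* were under 8 CPM in both libraries.

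*Cfap161* had no onset because Sertoli cells expressed it as well, at 13.7 and 7.66 CPM against 18.7 and 5.14 CPM in cluster 10.

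**Figure D2:**
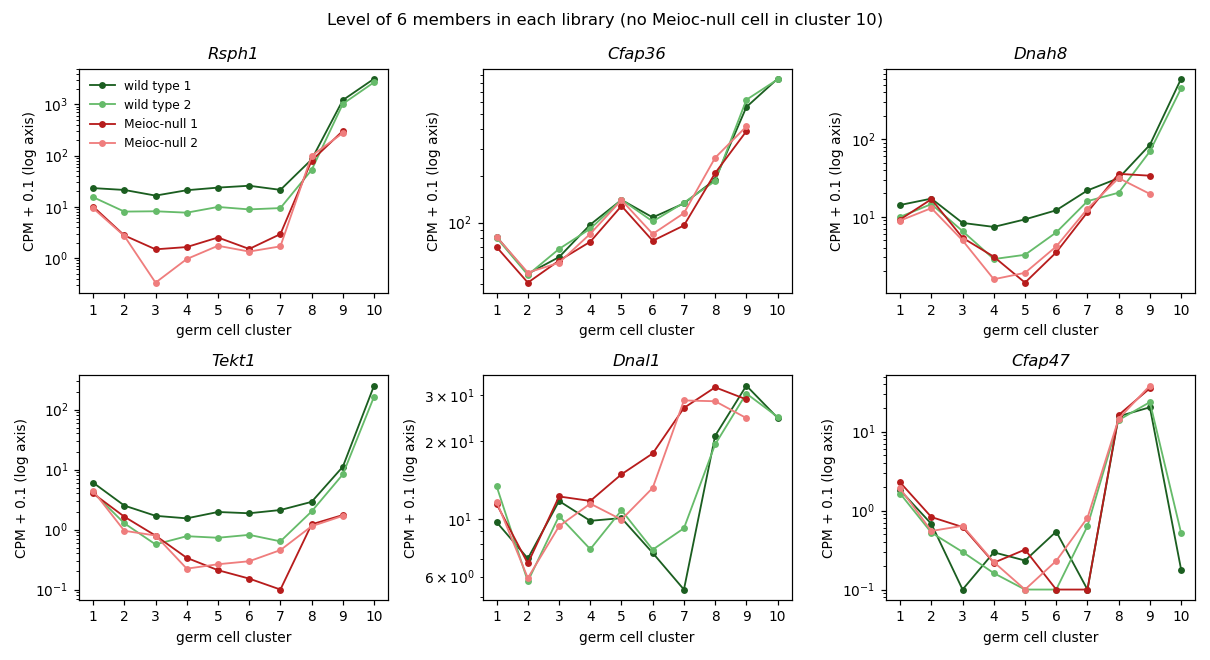
Level (CPM + 0.1, log axis) of 6 members in clusters 1 to 10, 1 line per library (green wild type, red *Meioc*-null); no *Meioc*-null cell was in cluster 10. *Rsph1* is low up to cluster 7, meets in all 4 libraries in cluster 8 and parts by genotype in cluster 9, *Dnal1* is higher in *Meioc*-null in clusters 6 to 8, and *Cfap47* drops in cluster 10.

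Genotypes were compared cluster by cluster on UMIs summed per library, with edgeR's quasi-likelihood test and Benjamini-Hochberg adjustment over all genes of the cluster. Fold changes are wild type over *Meioc*-null, and a gene was called at an adjusted p under 0.05 and a log2 fold change above 0.1 in size. Only members with at least 20 UMIs in a cluster could be tested, between 27 and 53 of the 68. In the spermatogonial clusters 1 to 4 no member was called, of 53, 52, 41 and 40 tested, while 0.0, 0.00632, 0.0557 and 0.0% of all genes were. At an unadjusted p under 0.05 there were 4, 3, 7 and 10 members, and DESeq2 called 0, 1, 0 and 1. Over all genes these shares were 1.85, 1.62, 2.81 and 4.7% at an unadjusted p under 0.05, and 0.0312, 0.0443, 0.104 and 0.116% by DESeq2. With the littermate pair as a replicate block, 1, 0, 3 and 7 members were called, and 0.48, 0.329, 1.83 and 2.73% of all genes. In cluster 5, 2 of 30 tested members were called, both higher in wild type, against 1.27% of all genes. These were *Rsph1* (23.7 and 9.87 CPM in wild type against 2.43 and 1.64 CPM, log2 fold change 3.07 ± 0.38 (SE), adjusted p = 0.000691) and *Dnah8* (9.19 and 3.15 against 1.32 and 1.81 CPM, 2.10 ± 0.45, adjusted p = 0.0169). The genotypes did not overlap for either. With 2 libraries per genotype a call makes this likely by itself, so here and below it adds no support. It was not counted over all genes. The count in cluster 5 was 1 without wild type replicate 1 or without *Meioc*-null replicate 1, 3 without *Meioc*-null replicate 2 and 5 with the replicate block, which called 6.37% of all genes. The member counts of clusters 1 to 5 also moved when 1 library was left out, which leaves a lone library in 1 group. The counts over all genes moved as well.

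**Figure D3:**
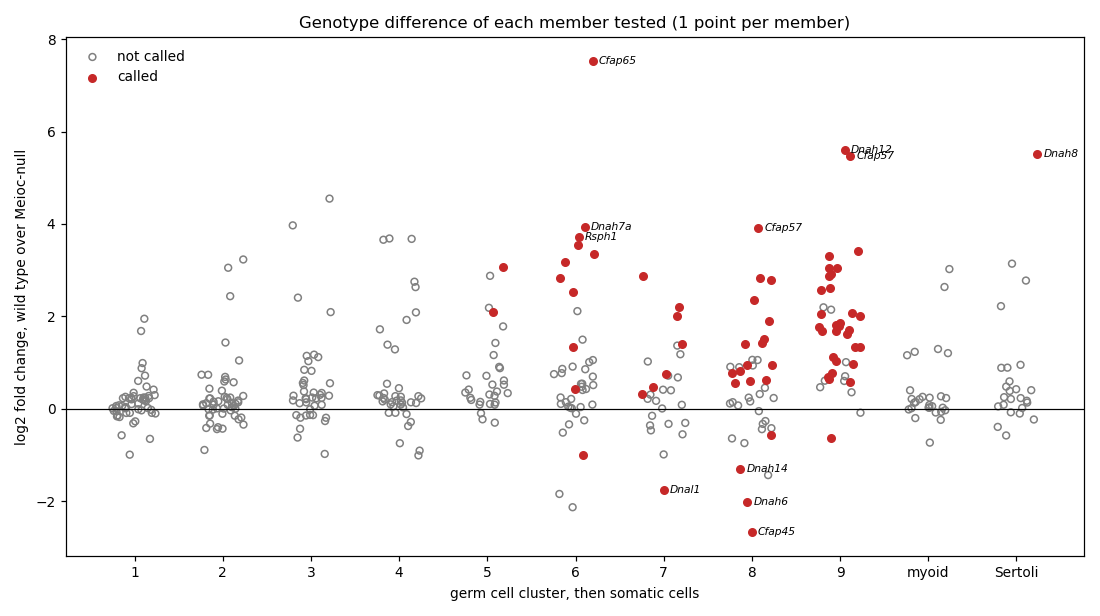
Log2 fold change (wild type over *Meioc*-null) of each member tested in clusters 1 to 9, myoid and Sertoli cells, 1 point per member, with called members filled in red. No point is filled in clusters 1 to 4, although some lie high there, and 30 of the 31 called members of cluster 9 lie above 0. Folds of members with few UMIs in *Meioc*-null, such as *Cfap65* in cluster 6, rest on the model's prior count.

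The early differences are given beside free RNA, transcripts of broken cells that can enter any droplet. Cells placed in cluster 10 came from the wild-type libraries alone and held 159 and 108 UMIs of *Rsph1* per cell. Myoid cells, which make no sperm axoneme, held 0.272 and 0.137 *Rsph1* UMIs per cell in wild type against 0.0382 and 0.0340 in *Meioc*-null. Cells of cluster 5 held 0.313 and 0.114 against 0.0279 and 0.0198, and those of cluster 6 held 0.321 and 0.101 against 0.0167 and 0.0161. In each library the *Rsph1* of these germ cells was thus close to that of myoid cells or below it.
*Ldhc*, the lactate dehydrogenase of pachytene cells and later, was also higher in wild-type myoid cells, with 0.245 and 0.0785 UMIs per wild-type myoid cell and 0.00136 and 0 per *Meioc*-null myoid cell. The ratio of *Rsph1* to *Ldhc* UMIs was compared within each library. In wild type replicate 1 it was 0.968 for cluster 10, 1.11 for myoid cells and 1.16, 1.14 and 1.00 for clusters 5, 6 and 7. In replicate 2 it was 2.07, 1.74, 2.47, 1.64 and 1.84. Myoid cells and clusters 5 to 7 were thus near cluster 10 in this ratio. It was 2.12 and 3.53 for cluster 8, 12.7 and 14.05 for cluster 9 and 4.47 and 16.8 for Sertoli cells, so these held more *Rsph1* for their *Ldhc* than cluster 10 did. The ratio of *Dnah8* to *Ldhc* was 0.183 and 0.345 for cluster 10 and 0.504 and 0.535 for myoid cells. It was 0.448 and 0.789 for cluster 5, 0.534 and 1.16 for cluster 6, and 1.02 and 3.11 for cluster 7. In each wild-type library myoid cells and clusters 5 to 7 were thus above cluster 10 in this ratio. Where the *Rsph1* and *Dnah8* UMIs of these cells came from was not tested. Sertoli cells held 1.56 and 2.03 *Rsph1* UMIs per cell in wild type against 0.788 and 1.24 in *Meioc*-null, so *Rsph1* was counted in Sertoli cells of both genotypes well above myoid cells.
Free RNA was estimated as the UMIs per myoid cell of the same library. The members summed to 374 and 292 CPM in wild-type myoid cells. In *Meioc*-null myoid cells, whose libraries held no cell of cluster 10, the sum was 299 and 282 CPM. The estimate can thus include transcripts that myoid cells make themselves, and their part was not tested. When this estimate was subtracted from the members alone, 0, 5, 4, 20 and 29 members were called in clusters 5 to 9. The members tested then numbered 17, 25, 21, 35 and 37. Without subtraction 2, 11, 8, 19 and 31 members were called. Of all genes, 157 of 12545, 1822 of 13563, 3522 of 11115, 4966 of 12379 and 5953 of 11654 were called after this subtraction. In cluster 7 the share of members called was thus below that of all genes. Calls whose level was above 2 times the myoid UMIs per cell in both libraries of the higher genotype numbered 0 of 2, 2 of 11, 3 of 8, 15 of 19 and 30 of 31 for clusters 5 to 9 in turn. This myoid level carries the same limit as the estimate.

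**Figure D4:**
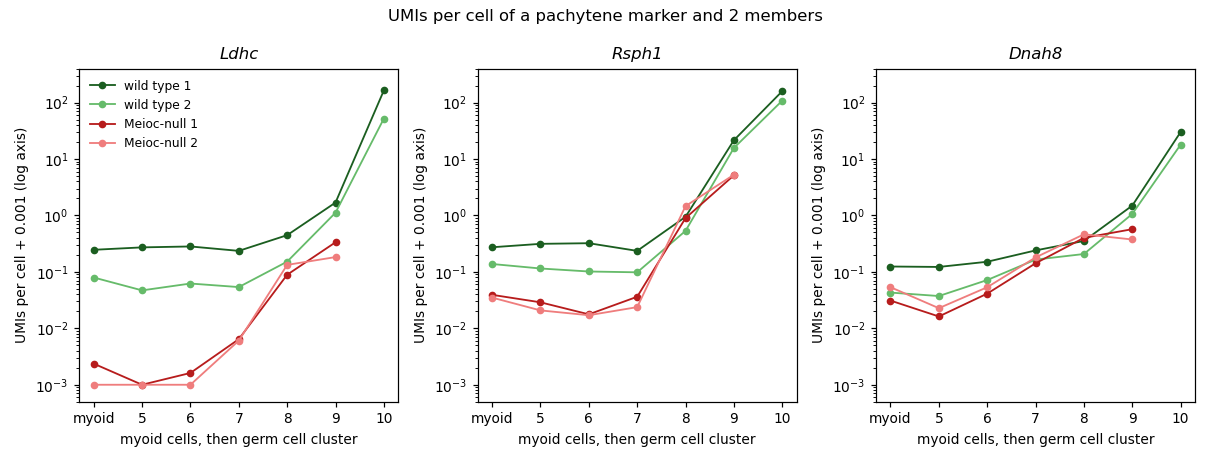
UMIs per cell (plus 0.001, log axis) of the pachytene marker *Ldhc* and of the members *Rsph1* and *Dnah8* in myoid cells and germ cell clusters 5 to 10, 1 line per library (green wild type, red *Meioc*-null). From myoid cells to cluster 7 the *Rsph1* lines are flat and wild type is above *Meioc*-null, as in the *Ldhc* panel; from cluster 8 on all 4 libraries rise above the myoid level.

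In cluster 6, 11 of 42 tested members were called, 10 of them higher in wild type, against 13.5% of all genes called and 5.3% called higher in wild type. The median log2 fold change was 0.53 over the members tested and -0.01 over all genes tested. Member medians were also positive where few or no members were called. They were 0.10, 0.11, 0.24, 0.21 and 0.39 in clusters 1 to 5, 0.14 in myoid cells and 0.25 in Sertoli cells. Medians over all genes ranged from -0.002 to 0.012 in these units. The largest changes included *Rsph1*, at 25.8 and 8.84 CPM in wild type against 1.41 and 1.24 CPM (3.73 ± 0.56, adjusted p = 0.015), a level close to that of myoid cells or below it, and 4 members with few UMIs. *Cfap65*, a CFAP needed for sperm flagella, had 27 and 4 UMIs in wild type against 0 and 0 in *Meioc*-null, which is at least 20.4-fold higher when 3 UMIs over the *Meioc*-null group are taken as the limit (adjusted p = 0.0191). Without wild type replicate 1 the bound was 5.48-fold, and without wild type replicate 2 it was 34.3-fold. *Dnah7a* had 17 and 8 UMIs against 1 and 2, a 16.5-fold ratio with a 95% counting interval of 5.03 to 85.3. *Cfap57*, which anchors inner arms, had 12 and 7 against 1 and 2 UMIs, a 12.5-fold ratio (3.69 to 66.1). *Tekt1* was at 1.77 and 0.716 CPM against 0.0522 and 0.196 CPM (3.35 ± 0.78, adjusted p = 0.0158). *Cfap65* and *Tekt5* were the 2 called members above 2 times the myoid level. *Tekt5* was at 0.996 and 2.27 CPM against 0.261 and 0.196 CPM (2.82 ± 0.65, adjusted p = 0.0142), and myoid cells of wild type held no UMI of it. Neither pair of genotypes overlapped. The called members of cluster 6 were 0 without *Meioc*-null replicate 1 and 3 without wild type replicate 1, DESeq2 called 4 (8.45% of all genes), and 19 were called with the replicate block (30.4% of all genes).

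*Dnal1* was the member of cluster 6 that was higher in *Meioc*-null. It was at 7.30 and 7.52 CPM in wild type against 17.8 and 13.1 CPM in *Meioc*-null (log2 fold change -1.01 ± 0.19, adjusted p = 0.00583 by edgeR). In cluster 7 it was at 5.25 and 9.12 against 26.7 and 28.6 CPM (-1.75 ± 0.27, adjusted p = 0.000184), and in cluster 8 at 20.8 and 19.3 against 32.1 and 28.4 CPM (-0.58 ± 0.17, adjusted p = 0.00804). Genotypes did not overlap in any of these clusters. In cluster 9 the values were 32.6 and 30.4 against 28.8 and 24.4 CPM and the test was not passed (0.36, adjusted p = 0.145). *Meioc*-null cells of clusters 7 and 8 thus held a *Dnal1* level close to that of wild-type cells in cluster 9. *Dnal1* is also expressed in myoid cells, and in none of these clusters was it above 2 times the myoid UMIs per cell in both *Meioc*-null libraries (in cluster 6, 0.211 and 0.169 against 0.124 and 0.213).

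In cluster 7, 8 of 27 tested members were called, 7 higher in wild type, against 31.7% of all genes called and 14.6% called higher in wild type. *Drc3* was at 25.8 and 27.6 CPM against 8.10 and 13.7 CPM (1.40 ± 0.27, adjusted p = 0.000984), with 0.283 and 0.286 UMIs per wild-type cell and 0.0197 and 0.0146 per wild-type myoid cell. *Cfap206* was at 4.04 and 2.15 against 0.438 and 0.887 CPM (2.20 ± 0.71, adjusted p = 0.0260) and *Dnah12* at 2.42 and 2.15 against 0.657 and 0.532 CPM (2.02 ± 0.73, adjusted p = 0.0437). These were the 3 calls above the myoid limit, and their genotypes did not overlap. *Rsph1* was also called (2.88 ± 0.44, adjusted p = 0.000178) at a level no higher than that of myoid cells. *Cfap20* was called with overlapping genotypes (148 and 117 against 126 and 105 CPM, 0.33 ± 0.12, adjusted p = 0.0491). After thinning 5 of 24 tested members were called, against 3242 of 10178 genes. DESeq2 called 3 of 27, against 18.0% of all genes. In both settings the share of members called was thus below that of all genes. The count was also lower whenever a library was left out.

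In cluster 8, 19 of 40 tested members were called, 15 with more in wild type and 4 with more in *Meioc*-null, against 40.1% of all genes called and 18.7% called higher in wild type. The median log2 fold change was 0.50 over the members and -0.03 over all genes. DESeq2 called 12, against 25.6% of all genes. The 8 pachytene markers also differed in cluster 8, with sums of 602 and 495 CPM for wild type against 322 and 343 CPM for *Meioc*-null. Of the 8, 5 were higher in both wild-type libraries, a count not made over all genes, while *Mns1* went the other way (69.0 and 56.7 against 112 and 109 CPM). Free RNA was not subtracted from them. *Ldhc* was at 39.8 and 14.9 CPM and *Piwil1* at 24.9 and 5.48 CPM in wild type. Wild-type myoid cells held 23.0 and 5.74 CPM of *Ldhc* and 20.4 and 1.87 CPM of *Piwil1*. *Tesmin* (336 and 290 against 13.6 and 4.67 CPM) and *Tbpl1* (125 and 123 against 26.1 and 25.9 CPM) stood further above myoid cells. The part of the markers in the member differences was not tested. *Cfap57* was at 11.5 and 7.63 CPM in wild type against 1.12 and 0.173 CPM in *Meioc*-null (3.92 ± 0.52, adjusted p = 3.94e-07). *Dnah12* was at 13.7 and 10.4 against 3.59 and 2.77 CPM (1.91 ± 0.33, adjusted p = 2.25e-05). Genotypes did not overlap for any of the 19, which the calls alone make likely and which was not counted over all genes. Of the 19, *Cfap20*, *Dnah1*, *Dnal1* and *Dnal4* were the 4 not above 2 times the myoid level. *Dnali1* (2.18 and 3.22 against 0.449 and 0.346 CPM, 2.80 ± 0.73, adjusted p = 0.00246) and *Dnah1* (6.22 and 1.91 against 0.674 and 0.346 CPM, 2.82 ± 0.73, adjusted p = 0.00241) rested on fewer UMIs, with at most 3 in a *Meioc*-null library. *Cfap65* was at 5.598 and 2.38 against 1.35 and 0.173 CPM (2.36 ± 0.69, adjusted p = 0.00637). Among called members with more UMIs, *Drc3* changed by 1.40 ± 0.17 (adjusted p = 5.08e-08), *Cfap20* by 0.95 ± 0.13 (8.54e-07) and *Cfap298* by 0.95 ± 0.14 (2.61e-06), all on the log2 scale. *Rsph1* did not pass the test in cluster 8, at 84.3 and 52.5 CPM against 80.1 and 99.6 CPM.

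The 4 members that were higher in *Meioc*-null in cluster 8 were *Cfap45*, *Dnah6*, *Dnah14* and *Dnal1*. *Cfap45*, a protein of the doublet lumen, was at 0.311 and 0.953 CPM in wild type against 6.06 and 4.15 CPM in *Meioc*-null (-2.67 ± 0.56, adjusted p = 0.000249). *Dnah6*, an inner arm chain, had 1 and 4 UMIs against 5 and 14 (-2.03 ± 0.79, adjusted p = 0.0404). *Dnah14* was at 7.78 and 7.27 against 21.3 and 16.6 CPM (-1.31 ± 0.24, adjusted p = 4.52e-05). None of these genotypes overlapped. Elsewhere in wild type *Cfap45* was at 7.18 and 7.17 CPM in cluster 1 and 91.0 and 42.4 CPM in cluster 10, so cluster 8 was below both ends of the series of clusters.

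In cluster 9, the last that *Meioc*-null cells reached, 31 of 40 tested members were called and 30 of them were higher in wild type. Over all genes 51.1% were called and 25.5% were called higher in wild type. The UMI minimum for a test was summed over all libraries, and wild type held more UMIs here (4880125 and 10468237 against 1214048 and 1884491). Genes high in wild type thus passed it more easily. This can tilt the direction count and the medians towards wild type, and its part was not tested. After thinning to equal UMIs, 25 of 30 tested members were called, against 4652 of 9337 genes. The median log2 fold change was 1.69 over the members tested and 0.02 over all genes tested, and the summed level reached 3049.9 and 2818 CPM in wild type against 1246 and 1217 CPM in *Meioc*-null. *Rsph1* was at 1215 and 1026 CPM against 305 and 276 CPM (2.05 ± 0.17, adjusted p = 1.32e-11). *Rsph1* was counted in 97.1% of wild type replicate 1 cells and 97.0% of *Meioc*-null replicate 2 cells; at this level nearly every cell has a UMI, so these shares cannot tell the genotypes apart. *Cfap36* was at 557 and 620.3 against 389 and 417 CPM (0.65 ± 0.15, adjusted p = 0.000705) and *Cfap20* at 228 and 192 against 78.3 and 63.7 CPM (1.68 ± 0.14, adjusted p = 2.68e-11). No genotypes overlapped among the 31 called members, which the calls alone make likely and which was not counted over all genes. DESeq2 called 23 members, against 35.7% of all genes, and 25 to 28 were called with 1 library left out. Subtracting the free RNA estimate from every gene, not from the members alone, left 6 called members in cluster 9, and no gene at all was called in clusters 1 to 8 under that setting.

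The motors of the arms were among those lower in *Meioc*-null in cluster 9. *Dnah8* was at 84.4 and 69.5 CPM against 33.8 and 19.6 CPM (1.68 ± 0.19, adjusted p = 1.2e-08). *Dnah12* had 77 and 168 UMIs in wild type against 0 and 1 in *Meioc*-null, a 49.5-fold ratio with a counting interval of 8.79 to 1961. Of the inner arm chains, 5 of the 6 tested were called higher in wild type. *Dnah7a* was at 54.9 and 41.7 against 23.9 and 23.3 CPM (1.11 ± 0.20, adjusted p = 2.51e-05), *Dnah7c* at 25.2 and 19.9 against 8.24 and 4.25 CPM (2.02 ± 0.33, adjusted p = 6.71e-06) and *Dnah1* at 12.7 and 8.31 against 0.824 and 1.59 CPM (3.05 ± 0.58, adjusted p = 5.45e-05). The genotypes stood apart in all of them. Of the intermediate and light chains, *Dnaic1* was at 32.0 and 28.9 against 2.47 and 7.43 CPM (2.57 ± 0.32, adjusted p = 8.27e-08), *Dnal4* at 56.6 and 44.2 against 19.8 and 11.1 CPM (1.86 ± 0.23, adjusted p = 5.75e-08), and *Dnali1* had 19 and 20 against 0 and 1 UMIs (7.87-fold, 1.33 to 319).

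Of the other roles in cluster 9, 4 of 5 radial spoke genes, 1 of 2 regulatory subunits and the 1 tektin tested were called, all higher in wild type. *Rsph3a* was at 20.9 and 34.5 against 7.41 and 15.4 CPM (1.34 ± 0.37, adjusted p = 0.00795) and *Drc3* at 44.9 and 39.8 against 13.2 and 9.02 CPM (2.07 ± 0.24, adjusted p = 2.12e-08). *Tekt1*, the 1 tektin with enough UMIs, was at 11.1 and 8.22 against 1.65 and 1.59 CPM (2.62 ± 0.54, adjusted p = 0.000169). Genotypes did not overlap for these 3. Among the 20 CFAPs tested, 14 were called higher in wild type. *Cfap57* had 93 and 120 UMIs against 1 and 0 (43.0-fold, 7.64 to 1706), *Cfap65* had 49 and 46 against 1 and 1 (9.59-fold, 2.58 to 80.3) and *Cfap46*, of the central apparatus, had 22 and 25 against 1 and 0 (9.49-fold, 1.62 to 383). *Rsph9* was the 1 called member that was not above 2 times its myoid level. *Cfap47* was the 1 member called higher in *Meioc*-null, at 20.3 and 23.6 against 35.4 and 38.2 CPM (-0.63 ± 0.21, adjusted p = 0.0110).

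The cells of cluster 9 also differed by genotype in pachytene markers. The 8 markers of the pachytene list summed to 933 and 805 CPM in wild type against 217 and 232 CPM in *Meioc*-null. Of the 8, 5 were higher in both wild-type libraries than in both *Meioc*-null libraries, a count not made over all genes. Among them *Tesmin* was at 468 and 437 CPM against 47.0 and 47.2 CPM and *Piwil1* at 61.1 and 26.4 CPM against 1.65 and 1.06 CPM. Free RNA was not subtracted from the markers here either. Myoid cells held 20.4 and 1.87 CPM of *Piwil1* in wild type against 0.283 and 0.649 CPM in *Meioc*-null. *Ccna1* had no UMI in any of the 4 libraries. The markers thus moved with the members, and their part in the member differences was not tested. A lower level in a cluster can come from fewer advanced cells or from less RNA per cell, which cannot be told apart here. With 14 germ cell clusters, of 41 members tested 23 were higher in wild type while 3 had the opposite direction in the last cluster that held enough *Meioc*-null cells, where 49.9% of all genes were called and 23.9% were called higher in wild type.

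The genotype difference itself changed between clusters 8 and 9. In an edgeR quasi-likelihood fit over both clusters with a term for each library, 20 of 37 members tested (54.1%) had a changed difference. All 20 shifted towards wild type in cluster 9 and none towards *Meioc*-null. Over all genes 36.4% had a changed difference in either direction, and the share that shifted towards wild type was not counted. Without that share the common direction cannot be read as particular to the members. The limit given above for the UMI minimum in cluster 9 applies here too. In size the difference was larger in cluster 9 for 17 of the 20 and smaller for 3 (*Cfap45*, *Dnah14* and *Dnal1*), and for 7 its sign turned. The change was 2.58 ± 0.11 for *Rsph1* (adjusted p = 1.04e-103), 2.17 ± 0.21 for *Dnah8* (1.68e-22) and 1.92 ± 0.28 for *Dnah14* (2.11e-10) on the log2 scale. With 2 pups per genotype the spread between pups is poorly known. Such small p-values rest largely on UMI counting and on spread pooled over genes. *Dnah14* was called in opposite directions, higher in *Meioc*-null in cluster 8 and higher in wild type in cluster 9 (34.0 and 31.6 against 22.2 and 24.4 CPM, 0.57 ± 0.21, adjusted p = 0.0212). Between these clusters its level went from 21.3 and 16.6 to 22.2 and 24.4 CPM in *Meioc*-null and from 7.78 and 7.27 to 34.0 and 31.6 CPM in wild type.

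In somatic cells 1 member was called. No member of 28 passed in myoid cells, where 0.19% of all genes were called (3 members had an unadjusted p under 0.05, DESeq2 called 1, and 3 were called with the replicate block, against 2.94, 0.102 and 0.649% of all genes). Without wild type replicate 2, 4 members were called over both cell types. In Sertoli cells 1 of 25 passed, against 0.652% of all genes. It was *Dnah8*, with 51 and 24 UMIs in wild type against 1 and 0 in *Meioc*-null, a 54.6-fold ratio (9.51 to 2187). Sertoli cells hold no flagellum, and 0.114 and 0.0803 *Dnah8* UMIs per cell in wild type compare with 0.118 and 0.0385 in barcodes with 1000 or fewer detected genes, whose content was not tested. In *Meioc*-null the values were 0.00249 and 0 per Sertoli cell and 0.00462 and 0.00766 per such barcode, while myoid cells held 0.123 and 0.0420 in wild type against 0.0300 and 0.0526 in *Meioc*-null. The genotypes thus stood apart in Sertoli cells and in such barcodes but overlapped in myoid cells.

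Markers of other ciliated or flagellated cells were scarce. Of the 7 markers of multiciliated epithelium, 4 had no UMI in cluster 10 (*Mcidas*, *Gmnc*, *Sntn* and *Scgb3a1*) and the list summed to 6.51 and 6.06 CPM. *Foxj1* made up most of this sum, at 3.57 and 3.87 CPM after 1.23 and 0.86 CPM in cluster 9. *Tppp3* was at 2.07 and 2.02 CPM and *Ccno* at 0.874 and 0.168 CPM in cluster 10. *Sntn* had no UMI in any germ cell cluster, so its absence is not particular to cluster 10. Of the 7 round spermatid markers, 4 had no UMI there, *Prm1*, *Prm2*, *Tnp2* and *Acrv1*, and *Spaca1* made up most of the list's 18.8 and 29.0 CPM. Several listed markers of both cell types were thus at 0 where the members were highest, while others, *Foxj1* among them, were counted at low levels.

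Genes of the axoneme that the symbol rule does not cover were mostly called in the same direction in cluster 9. A list of 113 such genes (dynein assembly factors, docking complex, central apparatus, doublet lumen, nexin and ruler proteins, intraflagellar transport, sheath proteins and transcription factors) had 103 in the files. In cluster 9, 53 of 81 tested were called higher in wild type while 5 had the opposite direction. The limit given above for the UMI minimum in cluster 9 applies to these genes too. The counts were 30 and 14 of 79 for cluster 8, 10 and 8 of 64 for cluster 7 and 10 and 2 of 81 for cluster 6. The share called higher in wild type was thus 65.4, 38.0, 15.6 and 12.3% for clusters 9, 8, 7 and 6, against 25.5, 18.7, 14.6 and 5.3% of all genes, so in cluster 7 it was near the background. Cluster 9 calls higher in wild type included 7 of 12 dynein assembly factors, 6 of 9 central apparatus genes, 15 of 21 intraflagellar transport genes and 5 of 7 nexin and ruler genes. *Zmynd10*, an assembly factor, was at 17.2 and 6.40 CPM in cluster 9 of wild type and had no UMI in *Meioc*-null. *Ccdc39*, of the ruler that spaces the arms, was at 51.2 and 38.3 CPM against 6.59 and 3.71 CPM (3.27, adjusted p = 1.56e-10 by edgeR).

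Of the 12 transcription factors of that list tested in cluster 9, 7 were called higher in wild type and 3 had the opposite direction. *Rfx2*, an RFX factor of spermatogenesis, was at 37.0 and 26.1 CPM against 20.9 and 15.2 CPM in cluster 8, and at 54.3 and 36.3 against 14.003 and 13.8 CPM in cluster 9 (1.77, adjusted p = 3.43e-07 by edgeR). *Mybl1*, the MYB factor of pachytene genes, was at 146 and 168 against 255 and 269 CPM in cluster 8 and at 145 and 149 against 239.7 and 211 CPM in cluster 9 (-0.50, adjusted p = 0.00133), so it was higher in *Meioc*-null. *Rfx3* was also higher in *Meioc*-null in cluster 9, at 19.1 and 15.6 against 28.0 and 40.9 CPM (-0.95, adjusted p = 0.000772). Genotypes did not overlap for these 3 factors in cluster 9.

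Over the 10 germ cell clusters of both wild-type libraries (20 points, which share libraries and clusters), the genes whose log2(CPM + 1) was most like that of *Rsph1* were *Ube2u* (Pearson r 0.991), *Cers3* (0.990), *Pdcl2* (0.989), the member *Dnah7a* (0.988) and *Meig1* (0.983). *Meig1* was at 3334 and 2748 CPM in cluster 10, a level like that of *Rsph1*. These correlations are descriptions without a test.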

How the data were processed

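Single-cell suspensions of 1 testis from each of 4 pups were run on 10x 3′ chemistry. The deposited UMI counts per gene and barcode are, per the labels, the output of Cell Ranger 4.0.0 on mm10 (GRCm38), with no normalization. The rest was computed here, in Python 3.11.15 with scanpy 1.11.5 and leidenalg 0.10.2, and in R 4.3.3. Barcodes with more than 1000 detected genes and under 10% mitochondrial UMIs were kept, and the barcodes with the highest Scrublet scores were removed at 0.8% per 1000 barcodes. Germ cells of wild type were clustered on 2000 variable genes and 30 principal components, without the members and other axoneme genes, and every germ cell took the most frequent cluster among its 30 nearest wild-type cells (99.2% of wild-type cells took their own). The cluster names were rebuilt here and may differ from those of the study.

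UMIs were summed per library and cluster where each library had at least 50 cells. Genes with at least 20 UMIs over the 4 libraries were tested with edgeR 4.0.16 (quasi-likelihood, robust, TMM scaling, two-sided), with Benjamini-Hochberg adjustment within the cluster. DESeq2 1.42.0, other filters, scalings and thresholds, free RNA subtraction, thinning, finer clusters, a block for the littermate pair and the loss of each library were tried as alternatives. Fits without the block are reported as the main ones. The labels give replicate numbers as littermate pairs, and deviations of same-numbered libraries from their group means correlated at 0.238 to 0.532 in the 11 units tested. The test was tried on simulated counts. Counting intervals are exact 95% intervals of the ratio of summed UMIs and cover counting error only; a count of 0 was set to 3 UMIs over the group.

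The members and lists were chosen with earlier results of these data known. Genes are named by fixed rules (the 3 highest members of each role and onset class, the 5 largest called changes of each cluster, members called in opposite directions or at 0 in *Meioc*-null, those with the most free RNA, and those that make up most of the sum), and further members of each role are named after their values were seen. The test between clusters 8 and 9 and the subtraction from the members alone were chosen after seeing the data. Gene positions are from GENCODE for GRCm38 and promoters from RefSeq.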

Additional observations from a re-analysis of the deposited data

Results flagged for a closer look

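*Dnah14* had genotype differences of opposite direction in neighbouring clusters. The log2 fold change of wild type over *Meioc*-null was -1.31 in cluster 8 and 0.57 in cluster 9, and the difference between them, 1.92, passed the test of the difference itself (adjusted p = 2.11e-10, edgeR). This p-value carries the limit given above for 2 pups per genotype.

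Barcodes with 10% or more mitochondrial UMIs, which enter no comparison, also held UMIs of the members. Their summed level was 577 and 564 CPM for wild type against 440 and 454 CPM for *Meioc*-null, higher in both wild-type libraries than in both *Meioc*-null libraries.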

How the results depend on the processing

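The called members of the spermatogonial clusters (2) became 13 with no filter on low counts, 1 with a filter at detection in 25% of cells, 16 with the replicate block, 6 with doublets kept, 1 after thinning, 0 after subtracting free RNA from every gene, 1 after subtracting it from the members alone and 0 under Bonferroni adjustment, and ranged from 3 to 17 with 1 library left out. Those of cluster 6 (11) became 4 by DESeq2, 1 with the 25% filter, 19 with the replicate block, 0 and 5 under the respective subtractions and 0 under Bonferroni, with a range of 0 to 9. Those of the early spermatocyte clusters (58) became 38 by DESeq2, 27 with the 25% filter, 6 after subtraction from every gene and 14 under Bonferroni, and were 46 to 50 with 1 library left out and 65 with the block. The somatic count (1) became 4 with no filter, 0 with the 25% filter, 5 with the block, 8 with doublets kept and 0 at a 5% mitochondrial limit, with a range of 1 to 4. Calls among the other axoneme genes in clusters 7 to 9 (120) became 74, 17 and 28 with the 25% filter, subtraction from every gene and Bonferroni. The pachytene onset class (34) became 21 at 10% of the peak. The filters test fewer or more genes by construction, and the other causes were not tested. Calls over all genes moved with the settings too. In cluster 6 the 25% filter called 1 of 4 members and 1585 of 6018 genes. Bonferroni called 48 of 13580 genes there, DESeq2 8.45% and the replicate block 30.4%. In cluster 9 the 25% filter called 17 of 18 members and 4416 of 6931 genes, and Bonferroni 1460 of 11657 genes. A changed member count is thus not by itself a result about the members. Subtraction from every gene left no gene at all called in clusters 1 to 8. Of 909 refits of 72 called results for single members, 685 kept direction and call, 223 kept direction and lost the call, and 1 reversed: *Cfap20* in cluster 7, at a log2 fold change of -0.0277 after subtraction from the members alone. Refits in which the member was not tested or had no adjusted p are not in this total. Under the 25% filter, for example, only 26 kept the call and 1 lost it. Bonferroni adjustment reuses the main fit, so direction could not change there. Several other settings refit the same counts, so a kept direction adds little. At the 5% limit clusters 6 to 9 had too few cells to be tested, and DESeq2 gave no adjusted p for 35 of 418 member tests. Lone samples left by the loss of a library are assumed to vary like the other group. Members under 20 UMIs in a cluster could not be tested, and with 72 and 99 *Meioc*-null cells in cluster 9 a member with few UMIs has a wide interval.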
